A study of Mus musculus with 6 samples.

Results

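The genes described here encode the proteasome and its inducible variant, the immunoproteasome. They are the rows whose gene symbol begins with Psma, Psmb, Psmc, Psmd, Psme, Psmf or Psmg followed by a number and, in 1 case, a letter, with pseudogenes left out: 49 of the 52856 rows of the count table. Expression was measured by RNA-seq in CD4+ T cells isolated from the spleen of 8-week-old C57BL/6 mice and activated for 48 hours with antibodies to CD3 and CD28. The mice were wild type (WT, 3 libraries) or miPEP31-/- (KO, 3 libraries), which lack miPEP31, a small peptide made from the precursor RNA of the microRNA miR-31. The sources used here do not say how the deletion was made or whether the replicates came from separate animals, so p-values measure the spread between these libraries, which may be technical.

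The proteasome degrades proteins tagged with ubiquitin: its barrel-shaped 20S core is built of outer alpha rings and inner beta rings, and the beta subunits Psmb5, Psmb6 and Psmb7 cut peptide bonds, while the 19S particle that caps the core recognises ubiquitin and unfolds substrates. Interferons induce replacements for these, Psmb8, Psmb9 and Psmb10, together with the PA28 activator of Psme1 and Psme2. The resulting immunoproteasome is abundant in lymphocytes and favours peptides that bind MHC class I molecules.

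Library totals ranged from 22865487 to 26295776 counts. The row of Mir31 had 0 counts in all 6 libraries, so the counts do not check the genotype labels. Summed levels of 8 T cell markers were 2131 to 2261 CPM (counts scaled to library size, here with TMM) in WT and 2042 to 2155 in KO. Of these 8, 5 were lower and 1 higher in the KO, and Cd4 itself stood at 421 to 497 CPM in WT and 295 to 310.5 CPM in KO. Sums of 6 B cell markers overlapped between the groups, at 63.8 to 92.8 CPM in WT and 62.7 to 125 in KO, and 3 of the 6 were higher and 0 lower. The 8 macrophage markers, of which 1 was higher and 1 lower, summed to 6.48 to 9.74 CPM in WT and 33.9 to 65.5 in KO. Mpeg1 alone made up 27.8 to 62.5 CPM in KO, the other 7 summed to 4.74 to 8.66 CPM in WT and 2.97 to 6.10 in KO, and Adgre1 and Fcgr1 were at 0 in all libraries. Sums of 2 CD8 T cell markers, 1 of them higher, were 12.5 to 15.8 CPM in WT and 15.9 to 36.9 CPM in KO. Sums of 4 NK cell markers, 2 of them higher, were 10.2 to 12.3 and 21.4 to 30.3, and sums of 7 dendritic cell markers, 1 of them higher and Cd209a and Clec9a at 0, were 6.25 to 7.58 and 12.0 to 13.1. In bulk RNA, fewer cells of a type and less RNA per cell cannot be told apart, and the part of these cells in the results below was not tested.

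Proteasome genes were broadly higher in the KO. Of the 49 genes, 47 passed the filter on low counts. Of these 47, 31 were higher in the KO and 0 lower (edgeR quasi-likelihood test, Benjamini-Hochberg adjusted p under 0.05), where 25.1% of all 14387 rows tested were higher and 22.2% lower. At an unadjusted p under 0.05, 33 were higher and 1 lower, and DESeq2 called 30 higher and 1 lower. The 3 KO libraries stood above the 3 WT libraries in 36 of the 47, against 30.6% of all rows. The median log2 fold change of the 47 was 0.33, a factor of 1.25, and that of all rows was 0.01. All 5 interferon-inducible subunit genes were higher, with a median log2 fold change of 0.89, as were 21 of the 31 constitutive subunits of the 20S core and 19S particle, with a median of 0.37. The rises of the constitutive subunits were modest, at most 1.58-fold.

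**Figure D1:**
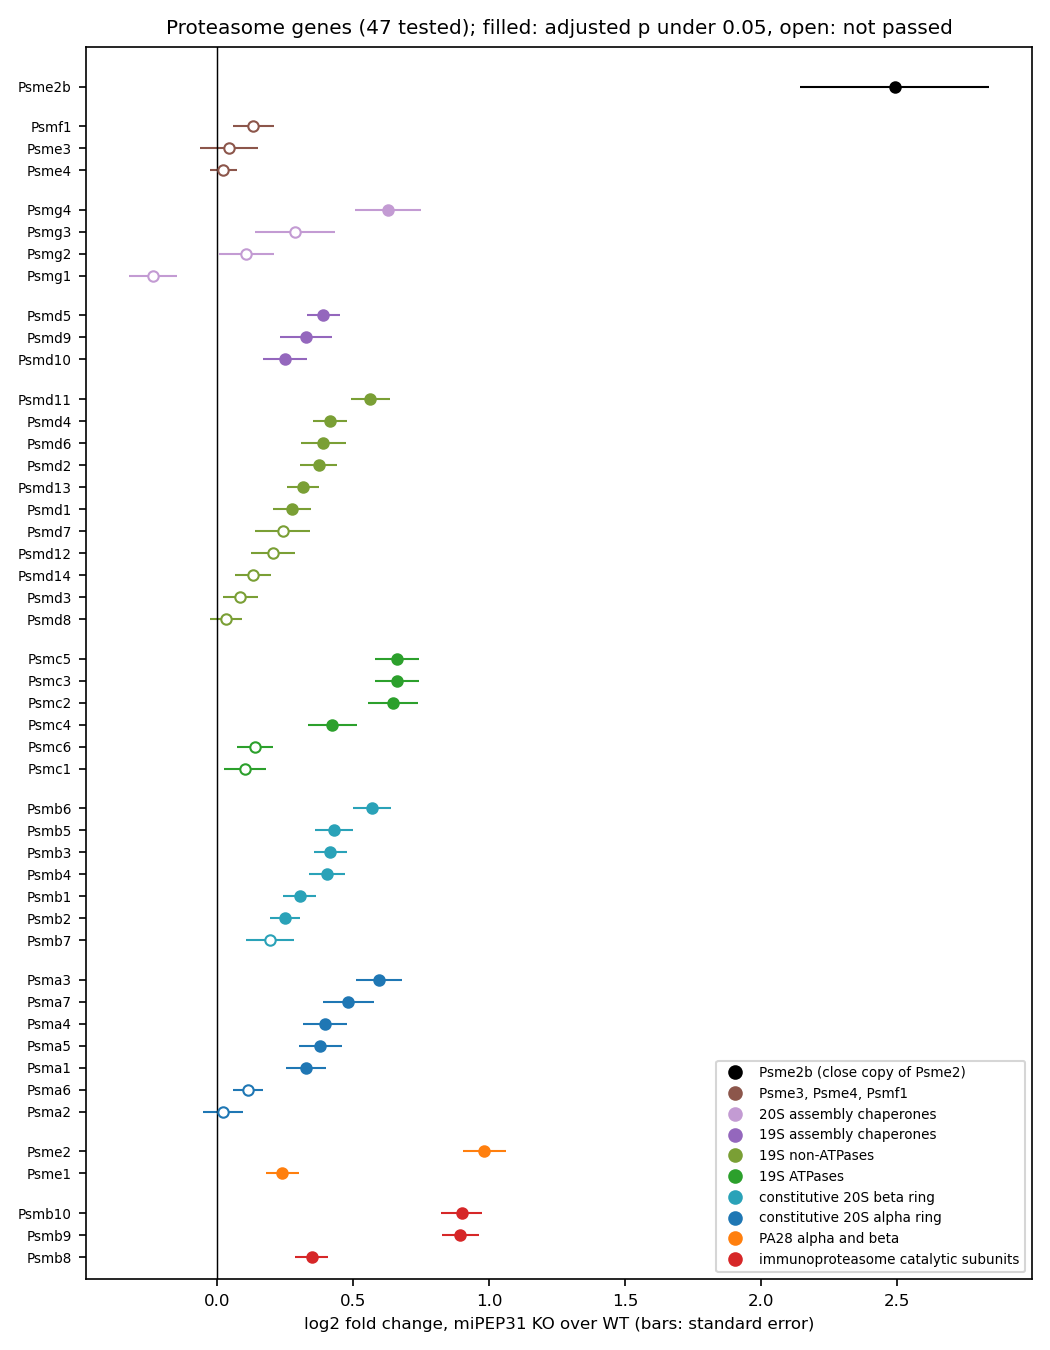
Log2 fold change, miPEP31 KO over WT, of the 47 tested proteasome genes, grouped by role, with bars for the standard error; filled points passed the edgeR test at an adjusted p under 0.05 and open points did not. Of the 47 points, 46 lie to the right of 0, where 51.1% of all rows tested had a log2 fold change above 0. Psme2, Psmb10 and Psmb9 stand apart from the constitutive subunits.

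The 3 inducible catalytic subunits all rose, Psmb10 by 1.87-fold, Psmb9 by 1.86-fold and Psmb8 by 1.27-fold. Psmb9 (ENSMUSG00000096727, chromosome 17, 34181987 to 34187764, GRCm38), also called LMP2, the replacement for Psmb6, stood at 116, 113 and 121 CPM in WT replicates 1 to 3 and at 233, 208 and 210 CPM in the KO. The groups did not overlap, and KO replicate 1 was the highest library. The difference passed the test (log2 fold change 0.89 with SE 0.07, adjusted p = 4.92e-05 by edgeR). Psmb10 (ENSMUSG00000031897, chromosome 8, 105935735 to 105938444), also called MECL-1, the replacement for Psmb7, had 33.6, 37.3 and 37.1 CPM in WT and 72.1, 63.8 and 65.7 in KO. Again no KO library reached down to the WT range (log2 fold change 0.90 with SE 0.08, adjusted p = 7.89e-05 by edgeR).

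Psmb8 (ENSMUSG00000024338, chromosome 17, 34197721 to 34201454), also called LMP7, which replaces Psmb5 and carries the chymotrypsin-like activity, stood at 288, 277 and 280 CPM in WT and at 380, 347 and 347 CPM in KO. The libraries again did not overlap, and the spread between KO libraries was wider than in WT (log2 fold change 0.35 with SE 0.06, adjusted p = 0.00225 by edgeR). Of the 31 constitutive subunits, 16 had a larger log2 fold change than Psmb8 and 0 had a larger one than Psmb9, Psmb10 or Psme2. Psmb8 and Psmb9 lie 9.96 kb apart in the MHC region, each next to a gene of the peptide transporter TAP. Their neighbours rose as well, Tap1 by 0.78 (SE 0.07) and Tap2 by 1.12 (SE 0.07) on the log2 scale. The annotated exons of Psmb9 share 212 bases with those of Tap1 on the other strand, 5.79% of the exon bases of Psmb9, and the sources used here do not say whether the counting used strand.

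Of the 3 constitutive partners, Psmb5 and Psmb6 rose and Psmb7 did not pass. Psmb6, the caspase-like subunit, had 87.3, 88.1 and 90.2 CPM in WT and 142, 129 and 123 CPM in KO, a rise of 1.48-fold (log2 fold change 0.57 with SE 0.07, adjusted p = 4.07e-04 by edgeR). Psmb5, the chymotrypsin-like subunit, had 63.6, 63.7 and 65.4 CPM in WT and 94.5, 83.5 and 81.5 in KO, a rise of 1.35-fold (log2 fold change 0.43 with SE 0.07, adjusted p = 0.00186 by edgeR). For both genes every KO library lay above every WT library. Psmb7, the trypsin-like subunit, had 148, 150.2 and 149 CPM in WT and 195, 159 and 158 in KO. The groups did not overlap, KO replicate 1 stood well above the other KO libraries, and the gene did not pass (log2 fold change 0.19 with SE 0.09, adjusted p = 0.102 by edgeR). Without KO replicate 3 it did (log2 fold change 0.23, adjusted p = 0.0437), and leaving out KO replicate 1 gave 0.085 (adjusted p = 0.218). Exons of Psmb7 share 11.8% of their bases with Nek6 on the other strand.

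**Figure D2:**
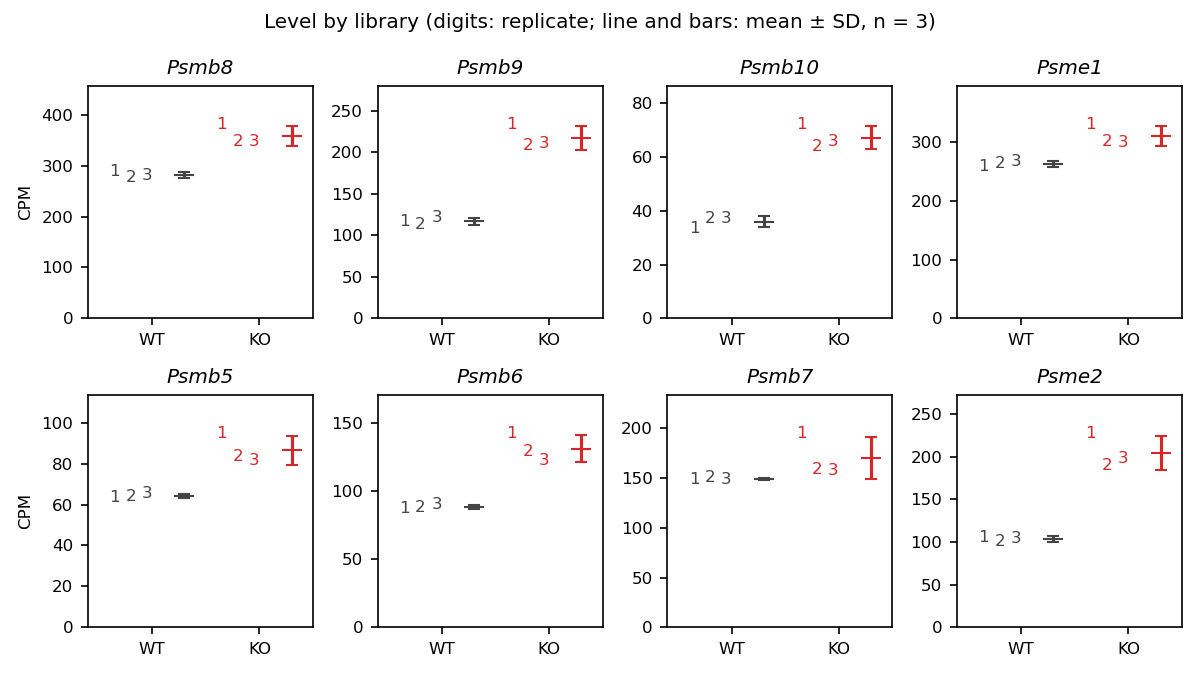
Level in CPM (vertical axes, from 0) of the inducible catalytic subunits Psmb8, Psmb9 and Psmb10 above their constitutive partners Psmb5, Psmb6 and Psmb7, with the PA28 genes in the last column; digits mark replicates, and lines with bars the mean ± SD of 3 libraries. In all 8 genes the KO libraries lie above the WT libraries, as in 30.6% of all rows tested, and KO replicate 1 is the highest.

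The ratio of inducible to constitutive counts within each library, which does not depend on depth or scaling, was compared for each pair. The log2 ratio of Psmb10 to Psmb7 was -2.14, -2.01 and -2.00 in WT and -1.43, -1.31 and -1.27 in KO, a difference of 0.71. That of Psmb9 to Psmb6 was 0.41, 0.36 and 0.43 in WT and 0.71, 0.68 and 0.78 in KO, a difference of 0.32. In both pairs the shift was several times the SD within a group (0.04 to 0.09), and every KO library lay above every WT library. The ratio of Psmb8 to Psmb5 went the other way and by little: 2.18, 2.12 and 2.10 in WT and 2.01, 2.05 and 2.09 in KO, a difference of -0.08 against SDs of 0.04 in each group. The groups did not overlap, although replicate 3 of each came close. Over the 3 pairs, each two-sided exact permutation test gave p = 0.1 (Benjamini-Hochberg adjusted p = 0.1), the smallest that 3 against 3 libraries allow, so no pair can pass a threshold of 0.05.

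**Figure D3:**
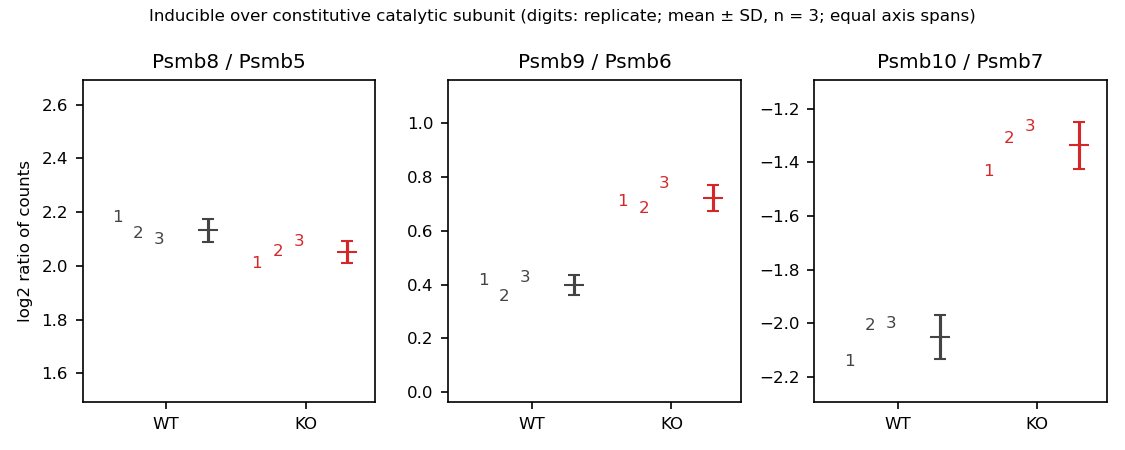
Log2 ratio of counts of each inducible catalytic subunit to its constitutive partner within each library (vertical axes of equal span); digits mark replicates, and lines with bars the mean ± SD of 3 libraries. The ratio is higher in the KO for Psmb9 to Psmb6 and Psmb10 to Psmb7, and slightly lower for Psmb8 to Psmb5.

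Summed per kb of annotated exon, the inducible genes made up 45.9%, 45.4% and 45.6% of the signal of the 6 catalytic subunit genes in WT and 47.8%, 48.6% and 49.5% in KO, a shift of 3.01 percentage points. Mean shares were 45.6% ± 0.278 and 48.7% ± 0.852 (SD, n = 3 each). Dividing instead by the length of the principal transcript gave 48.0% and 51.5%, and plain counts, not divided by length, gave 59.0% and 62.4%.

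Both PA28 genes, which encode the subunits of an activator that opens the ends of the core, rose. Psme2 (PA28 beta, ENSMUSG00000079197, chromosome 14, 55587441 to 55591113) had 106, 100.1 and 105 CPM in WT and 227, 189 and 198 in KO. It rose 1.98-fold (log2 fold change 0.98 with SE 0.08, adjusted p = 6.07e-05 by edgeR), the largest rise of the 5 inducible genes. Psme1 (PA28 alpha, ENSMUSG00000022216, chromosome 14, 55578123 to 55581529), whose gene lies 5.91 kb away, had 258, 264 and 267 CPM in WT and 330, 301 and 300.2 in KO. The libraries did not overlap, and the rise was 1.18-fold (log2 fold change 0.24 with SE 0.06, adjusted p = 0.0120 by edgeR). Leaving out WT replicate 1 or 2 ended the call of Psme1 (edgeR adjusted p = 0.0562 and 0.0547). The log2 ratio of Psme2 to Psme1 counts was -1.40 to -1.29 in WT and -0.67 to -0.54 in KO; this pair was chosen after its values were seen and was not tested.

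Psme2b (ENSMUSG00000078153, chromosome 11, 48945354 to 48946190) is annotated as a protein-coding gene and is a close copy of Psme2, with which reads can be shared, so its level is uncertain. Its deposited counts were 33.5, 29.6 and 19.8 in WT and 227, 163 and 99.8 in KO, not whole numbers. Its log2 fold change of 2.49 (SE 0.35, adjusted p = 7.91e-04 by edgeR) was the largest of the 47. Psme2b made up 0.816% to 1.35% of the counts of both genes in WT and 2.12% to 4.13% in KO. Adding the 2 genes together gave 105 ± 3.05 CPM in WT and 211 ± 22.2 CPM in KO (SD, n = 3 each), 2.02-fold higher, so the rise of Psme2 is nearly the same with or without its copy. Its neighbour 9930111J21Rik1, with which it shares 41 exon bases on the same strand, stood at 3.84 to 6.67 CPM in WT and 17.0 to 32.2 in KO.

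The promoters of the 5 inducible genes are shown because these genes are defined by their response to interferon. The RefSeq (GRCm38.p6) promoter set used here held windows from 250 bases before to 50 bases after the start for 41 of the 49 genes. The 8 without a window in this set were Psma8, Psmb1, Psmb2, Psmb7, Psmc3, Psmd3, Psmd7 and Psmg2. In each window 4 motifs were searched on both strands: the core of the interferon-stimulated response element (ISRE, TTTC and TTTC with any 2 bases between), the gamma-activated site (GAS, TTCNNNGAA), an NF-kB site (GGG and TTTCC with any 2 bases between) and the antioxidant response element (TGACNNNGC), which is also bound by the proteasome regulator NRF1. Capitals mark a match.
Psmb8 promoter, chr17:34197945-34198244, plus strand: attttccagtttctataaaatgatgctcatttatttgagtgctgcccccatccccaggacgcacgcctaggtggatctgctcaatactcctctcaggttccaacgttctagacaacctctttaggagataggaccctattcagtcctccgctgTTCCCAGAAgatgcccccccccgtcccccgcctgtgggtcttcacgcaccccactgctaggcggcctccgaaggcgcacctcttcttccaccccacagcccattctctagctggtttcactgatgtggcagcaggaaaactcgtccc
Psmb9 promoter, chr17:34187281-34187580, minus strand: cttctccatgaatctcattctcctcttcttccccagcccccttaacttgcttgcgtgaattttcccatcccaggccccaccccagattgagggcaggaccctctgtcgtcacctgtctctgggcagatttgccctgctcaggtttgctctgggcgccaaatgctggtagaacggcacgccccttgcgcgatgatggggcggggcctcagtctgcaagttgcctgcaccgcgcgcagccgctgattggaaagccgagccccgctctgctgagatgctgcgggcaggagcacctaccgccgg
Psmb10 promoter, chr8:105938343-105938642, minus strand: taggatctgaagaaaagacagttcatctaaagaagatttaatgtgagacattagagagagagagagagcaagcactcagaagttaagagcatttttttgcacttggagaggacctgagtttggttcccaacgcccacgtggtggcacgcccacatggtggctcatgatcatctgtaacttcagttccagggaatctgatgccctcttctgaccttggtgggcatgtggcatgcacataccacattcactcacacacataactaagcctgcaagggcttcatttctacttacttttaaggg
Psme1 promoter, chr14:55578244-55578543, plus strand: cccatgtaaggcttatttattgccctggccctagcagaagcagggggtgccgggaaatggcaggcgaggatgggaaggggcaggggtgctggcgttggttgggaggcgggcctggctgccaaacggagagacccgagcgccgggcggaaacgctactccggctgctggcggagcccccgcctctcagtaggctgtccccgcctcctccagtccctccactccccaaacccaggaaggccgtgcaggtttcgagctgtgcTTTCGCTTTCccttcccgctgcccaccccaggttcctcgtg
Psme2 promoter, chr14:55591052-55591351, minus strand: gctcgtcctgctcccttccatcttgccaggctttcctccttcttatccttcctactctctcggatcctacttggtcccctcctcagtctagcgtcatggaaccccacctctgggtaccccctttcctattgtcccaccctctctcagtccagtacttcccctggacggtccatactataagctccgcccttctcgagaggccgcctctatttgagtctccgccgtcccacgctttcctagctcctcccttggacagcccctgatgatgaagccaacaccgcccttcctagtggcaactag
Psme2 has a second RefSeq start, with no match either. Psmb8 held a GAS match, TTCCCAGAA, at positions -97 to -89 from the start, and Psme1 an ISRE match, TTTCGCTTTC, at 10 to 19 after it. No letters of the 4 motifs were found in the windows of Psmb9, Psmb10 and Psme2, the genes with the 3 largest fold changes of the 5. The windows of Psmb8, Psmb9 and Psme1 lie wholly inside the GENCODE spans of these genes given above. Sequence before the outermost annotated starts of these genes was therefore not searched, and a missing match holds for the printed window only. The ISRE core was found in 5 of the 41 genes (12.2%) and in 3.99% of all 27025 RefSeq genes with such a window. Besides Psme1 these were Psmb3 and Psmd4, with TTTCACTTTC and TTTCCATTTC, and the chaperone genes Psmd9 and Psmg4. The NF-kB letters were found in 0 of 41 genes (all genes 1.89%), the GAS core in 3 of 41 (7.32%, all genes 9.55%) and the antioxidant response element in 6 of 41 (14.6%, all genes 14.0%). A match is a description of letters and not a bound site.

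In the alpha rings, which gate the entry to the core, 5 of 7 genes rose and 2 did not pass, where 25.1% of all rows tested were higher. Psma3 rose the most, from 96.0, 109.9 and 116 CPM in WT to 173, 155 and 159 CPM in KO (log2 fold change 0.60 with SE 0.08, adjusted p = 8.75e-04 by edgeR). Psma7 followed at 0.48 (SE 0.09), Psma4 at 0.40 (SE 0.08), Psma5 at 0.38 (SE 0.08) and Psma1 at 0.33 (SE 0.07). Psma2 had a WT level of 184 ± 9.91 CPM and a KO level of 187 ± 14.4 (SD, n = 3 each), with overlapping libraries (log2 fold change 0.02, adjusted p = 0.832 by edgeR). Psma6 stood at 122 to 127 CPM in WT and 131 to 140 CPM in KO, which did not overlap, and did not pass (log2 fold change 0.11, adjusted p = 0.131 by edgeR).

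In the beta rings all 7 constitutive genes had KO libraries above WT libraries and 6 rose. Over all rows tested these shares were 30.6% and 25.1%. Among the subunits without an active site, Psmb3 and Psmb4 rose by 0.42 (SE 0.06) and 0.40 (SE 0.07), and Psmb1 and Psmb2 by 0.30 (SE 0.06) and 0.25 (SE 0.06). Psmb3 had 125, 125 and 126 CPM in WT and 178, 162 and 162 CPM in KO. With Psmb6 at the top and Psmb7 at the bottom, the 7 log2 fold changes spanned 0.19 to 0.57. Summed over the 14 constitutive core genes, the level was 1872 to 1956 CPM in WT and 2313 to 2646 CPM in KO, 1.26-fold higher on average, while the 5 inducible genes together went from 790.4 to 810.3 CPM in WT to 1109 to 1242 CPM in KO, 1.45-fold higher.

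The 6 ATPases of the 19S particle form the ring that unfolds substrates and threads them into the core. Of these, 4 rose and 2 did not pass, where 25.1% of all rows tested were higher. Psmc5, Psmc3 and Psmc2 had the largest log2 fold changes of any constitutive subunit, Psmc5 and Psmc3 at 0.66 (SE 0.08) and Psmc2 at 0.65 (SE 0.09). Psmc5 had 84.7, 88.9 and 95.6 CPM in WT and 156, 136 and 134 in KO (edgeR adjusted p = 4.23e-04). Psmc3 had 137, 152 and 157 CPM in WT and 257, 225 and 222 in KO (edgeR adjusted p = 4.35e-04). In both, WT replicate 1 was the lowest and KO replicate 1 the highest library, with no overlap. Psmc4 rose by 0.42 (SE 0.09). Psmc1 had a WT level of 165 ± 8.03 CPM and a KO level of 177 ± 14.6 and Psmc6 172 ± 4.52 and 189 ± 12.9 (SD, n = 3 each), and neither passed (edgeR adjusted p = 0.302 and 0.121).

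Of the 11 non-ATPase subunits, 6 rose and 5 did not pass, where 25.1% of all rows tested were higher. Psmd11, a lid subunit, rose the most, from 123, 126 and 133 CPM to 203, 186 and 175 CPM (log2 fold change 0.56 with SE 0.07, adjusted p = 5.07e-04 by edgeR). Psmd4, a ubiquitin receptor, rose by 0.41 (SE 0.06) and Psmd6 by 0.39 (SE 0.08). Psmd2, a large scaffold of the base that docks ubiquitin-like domains, had 301, 310 and 312 CPM in WT and 424, 404 and 366 CPM in KO (log2 fold change 0.37 with SE 0.07, adjusted p = 0.00270 by edgeR). Psmd13 rose by 0.32 (SE 0.06) and Psmd1, the other scaffold, by 0.28 (SE 0.07). Without WT replicate 1 or 2, Psmd1 no longer passed (edgeR adjusted p = 0.0531 and 0.0608). Psmd14, the deubiquitinase of the lid, had a WT level of 125 ± 3.90 CPM and a KO level of 137 ± 8.78 (SD, n = 3 each) and did not pass (edgeR adjusted p = 0.134).

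Psmd8, Psmd3, Psmd12 and Psmd7 did not pass either, with log2 fold changes of 0.03, 0.08, 0.21 and 0.24 (edgeR adjusted p = 0.673, 0.306, 0.0702 and 0.0814). Psmd12 and Psmd7 passed without KO replicate 3, at 0.24 and 0.33 (adjusted p = 0.0270 and 0.00475), and were at 0.11 and 0.15 without KO replicate 1 (adjusted p = 0.138 and 0.173). By the usual division of the particle, 6 of 8 genes of the base (the ATPases, Psmd1 and Psmd2) rose, with a median of 0.40. Of 8 lid genes with a Psmd symbol, 3 rose, with a median of 0.22. Over all rows tested 25.1% were higher. Sem1, listed with subunits of other symbols, did not pass (log2 fold change 0.03, adjusted p = 0.738 by edgeR). The ubiquitin receptor genes Psmd4 and Adrm1, which rose by 0.41 (SE 0.06) and 0.42 (SE 0.07), were counted with neither base nor lid. The division into base and lid was applied after the values were seen, and the difference between base and lid was not tested. Summed over the 17 genes of the 19S particle, the level was 2459 to 2611 CPM in WT and 2961 to 3368 CPM in KO, 1.24-fold higher on average.

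The 3 chaperones of the 19S base with a Psmd symbol, which bind its ATPases during assembly, all rose. Over all rows tested 25.1% were higher. The rises were 0.39 (SE 0.06) for Psmd5, 0.33 (SE 0.09) for Psmd9 and 0.25 (SE 0.08) for Psmd10, also known as gankyrin. Paaf1, listed with assembly proteins of other symbols, had no row of that symbol and was not measured here. Psmd5 had 54.0, 55.7 and 57.2 CPM in WT and 75.8, 70.5 and 72.4 in KO (edgeR adjusted p = 0.00130). Psmd10 was the gene nearest the threshold among those that passed (edgeR adjusted p = 0.0352), which it no longer met when a WT library or KO replicate 1 or 3 was left out (adjusted p 0.0706 to 0.115). Psmd9 (edgeR adjusted p = 0.0224) missed the threshold when a WT library or KO replicate 2 was left out (adjusted p 0.0602 to 0.0823), and 25.5% of its exon bases are shared with the gene Gm26745 on the other strand, which had 4 to 14.2 counts a library.

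Of the 4 chaperones of the 20S core with a Psmg symbol, 1 rose, which is the share of all rows tested that were higher (25.1%). Psmg4 went from 13.1, 13.4 and 12.7 CPM in WT to 23.5, 19.7 and 17.4 in KO (log2 fold change 0.63 with SE 0.12, adjusted p = 0.00376 by edgeR). Psmg1 was the 1 tested proteasome gene with a negative log2 fold change. It had 33.4, 36.2 and 31.9 CPM in WT and 31.3, 28.4 and 26.5 in KO, so that every KO library lay below every WT library, and it fell just outside the threshold (log2 fold change -0.24 with SE 0.09, adjusted p = 0.0570 by edgeR). It was called lower without KO replicate 1 (log2 fold change -0.30, adjusted p = 0.0161 by edgeR). Psmg2, which pairs with Psmg1 to start the alpha ring, had a WT level of 34.2 ± 2.06 CPM and a KO level of 36.8 ± 4.60, and Psmg3, the partner of Psmg4, 15.5 ± 1.60 and 18.9 ± 3.53 (SD, n = 3 each). Neither passed (edgeR adjusted p = 0.411 and 0.145), although Psmg3 did without KO replicate 3 (log2 fold change 0.38, adjusted p = 0.0398). Without KO replicate 1, Psmg3 was at 0.13 (adjusted p = 0.402). Pomp, a 20S chaperone gene listed with assembly proteins of other symbols, did not pass (log2 fold change 0.0015, adjusted p = 0.987 by edgeR).

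The other activators and the inhibitor of the core did not pass. Psme4, the gene of the nuclear activator PA200, had a WT level of 139 ± 0.373 CPM and a KO level of 141 ± 1.47 (SD, n = 3 each, edgeR adjusted p = 0.738). Psme3, the gene of the nuclear activator PA28 gamma, had 213, 220.1 and 239 CPM in WT and 262, 236 and 195 in KO. The KO libraries of Psme3 spanned those of WT (edgeR adjusted p = 0.764). Psmf1, the gene of the inhibitor PI31, had 38.8 ± 1.49 and 42.5 ± 3.12 CPM (edgeR adjusted p = 0.181). The 2 genes that did not pass the filter are tissue-restricted core subunits. Psmb11, the catalytic subunit of the thymus, had 0 counts in every WT library and 0, 3 and 4 in KO, and Psma8, the alpha subunit of the testis, had 3, 0 and 3 counts in WT and 2, 14 and 2 in KO. A count of 0 allows up to 3 counts, or 0.112 to 0.130 CPM in these libraries, counting error only.

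Levels were compared between genes as mean CPM per kb of the principal transcript. In WT the 14 constitutive core genes lay between 37.7 (Psma3) and 164 (Psmb3) with a median of 124, and in KO between 57.0 and 218 with a median of 156. The 17 genes of the 19S particle lay between 44.8 (Psmd11) and 143 (Psmd8) in WT, and between 62.3 (Psmd13) and 146 (Psmd8) in KO. Psme1 was the highest member in both groups, at 236 and 279, and Psmb8 exceeded each constitutive core gene, at 173 in WT and 220.0 in KO. Psmb9 went from 86.4, below the core median, to 161, just above it, and Psme2 from 108 to 213, while Psmb10 was at 27.5 and 51.3, below the lowest core gene in both groups. Per kb of all annotated exon bases, Psmb2 was the highest constitutive core gene in both groups, at 108 and 128, and Psmb8 was at 83.2 and 106, below it. By that length Psmb9 was at 31.9 and 59.3, below the core medians of 58.8 and 75.9 in both groups. The spread between core subunits changed little, with an SD of 0.64 on the log2 scale per kb of principal transcript in both groups.

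**Figure D4:**
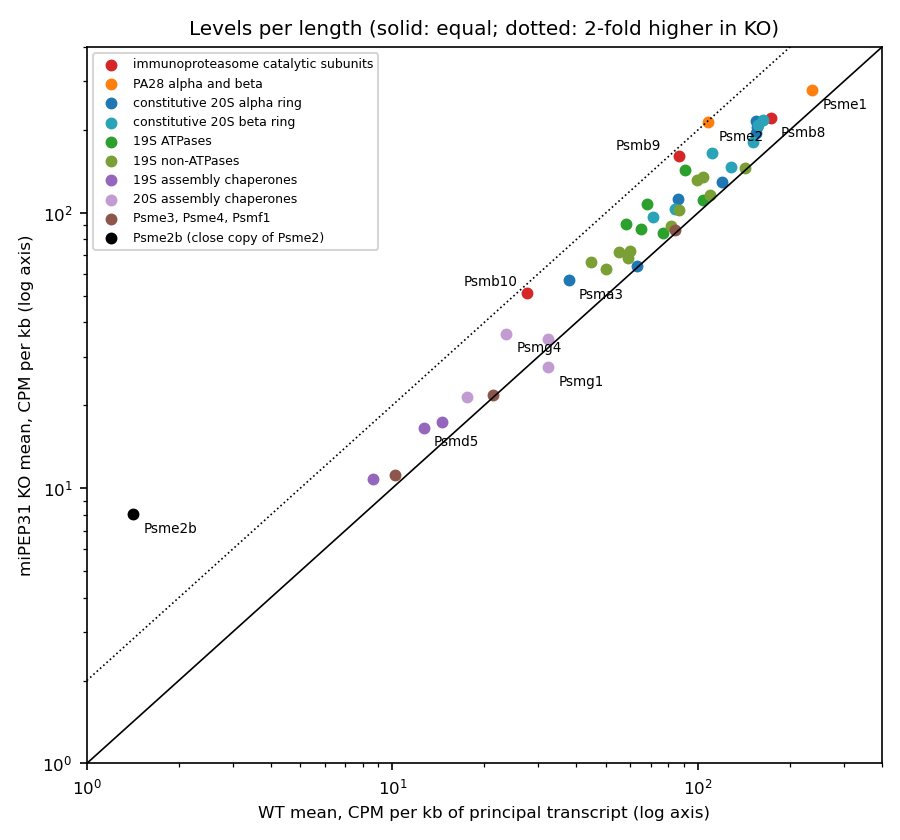
Mean level of each tested proteasome gene in WT (horizontal, log axis) and miPEP31 KO (vertical, log axis), in CPM per kb of principal transcript; the solid line marks equal levels and the dotted line 2-fold higher in the KO. Most genes lie just above the solid line, Psme2, Psmb9 and Psmb10 near the dotted one, and Psmg1 below the solid line.

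Across the proteasome genes 1 KO library was regularly the highest. KO replicate 1 was the highest of the 3 KO libraries in 45 of the 47 genes and KO replicate 3 the lowest in 32. How often each library was highest over all rows was not counted, so this order is not shown to be particular to these genes. Relative to the WT mean, the median log2 level of the 47 genes was 0.45, 0.30 and 0.27 in KO replicates 1, 2 and 3, and -0.04, 0.00 and 0.03 in WT replicates 1, 2 and 3, while over all rows tested it was between 0.01 and 0.02 in the KO libraries. In these medians the differences between KO libraries were smaller than the distance of each from WT. Without KO replicate 1 the count of higher genes was 30 and the median log2 fold change 0.29. The median of the constitutive subunits of the 20S core and 19S particle was then also 0.29, against 0.37 with all libraries. Mpeg1 had the same order, at 62.5, 37.9 and 27.8 CPM in KO replicates 1, 2 and 3, while the other 7 macrophage markers summed to 2.97, 4.69 and 6.10 CPM, the opposite order. The part of Mpeg1-expressing cells in the order of the proteasome genes was not tested.

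Genes that work with the proteasome under other names were called in both directions. Of 33 on a list of subunits, deubiquitinases, shuttle factors, regulators and ubiquitin genes, 32 were tested, of which 13 rose, 2 fell and 17 did not reach the threshold, with a median log2 fold change of 0.12. Over all rows tested 25.1% were higher and 22.2% lower, with a median of 0.01. The ubiquitin receptor gene Adrm1, a 19S subunit, rose by 0.42 (SE 0.07), and Txnl1, a thioredoxin bound to the particle, by 0.21 (SE 0.06), with 4 others of that group not passing. The Txnl1 call (edgeR adjusted p = 0.0254) was lost when a WT library or KO replicate 2 was left out (adjusted p 0.0572 to 0.0915). The ligase gene Ube3c rose by 0.47 (SE 0.11). Among shuttle and unfoldase factors 5 of 11 rose: the autophagy receptor gene Sqstm1 went from 153 ± 4.75 to 294 ± 7.80 CPM (SD, n = 3 each, edgeR adjusted p = 1.84e-05), Zfand2a rose by 0.66 (SE 0.13), Zfand5 by 0.57 (SE 0.08), and Nploc4 and Vcp, a cofactor and the p97 unfoldase itself, by 0.36 (SE 0.06) and 0.27 (SE 0.06). Ubqln4 was lower at -0.34 (SE 0.11, edgeR adjusted p = 0.0347), a call that the same omissions ended (adjusted p 0.0725 to 0.115).

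Of the 5 regulators of proteasome genes on the list, 2 rose and 1 fell, where 25.1% and 22.2% of all rows did. Nfe2l1, the gene of the transcription factor NRF1 that restores proteasome genes when the proteasome is inhibited, had a WT level of 143 ± 6.10 CPM and a KO level of 252 ± 26.0 (SD, n = 3 each), a log2 fold change of 0.82 (SE 0.08, adjusted p = 1.89e-04 by edgeR). Ngly1, which encodes the glycanase that processes NRF1, rose by 0.51 (SE 0.09), and the repressor gene Bach1 fell by 0.36 (SE 0.09). The polyubiquitin gene Ubb rose by 0.55 (SE 0.05), and Uba6, which encodes a ubiquitin-activating enzyme, by 0.52 (SE 0.09). On the interferon side, 5 of 6 regulators rose and 1 fell. Irf9 and Stat2, which encode components of the factor activated by type I interferon, rose by 2.06 (SE 0.07) and 1.87 (SE 0.07), Nlrc5, a transactivator of MHC class I and immunoproteasome genes, by 1.26 (SE 0.09) and Irf1 by 1.10 (SE 0.08). Irf8 was lower at -0.77 (SE 0.12, edgeR adjusted p = 0.00119). Irf1, Irf8, Ubqln4, Vcp, Pomp and Sem1 were named after their values were seen.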

How the data were processed

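Per the labels' protocols, Trizol was used for RNA and a TruSeq kit for libraries. Bowtie 0.12.2 and mm8 are named, without a role, per the submitters' processing notes; how reads were counted, including strand, is not stated in the sources. The authors deposited estimated counts per gene, of which 72.2% of the values above 0 were exactly whole as deposited; they were rounded for testing. The 944 rows with MSTRG IDs (0.903% to 1.56% of counts) were kept. Symbols, coordinates and exon lengths were taken by gene ID from GENCODE M21 (GRCm38), and promoters from RefSeq.

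Rows were filtered with filterByExpr (minimum count 10), which left 14387 rows with 99.9% of the counts, scaled with TMM and tested in all 6 libraries with the edgeR 4.0.16 quasi-likelihood test (robust, no covariate, R 4.3.3), Benjamini-Hochberg adjusted over all rows at 0.05. SE was obtained by dividing the log2 fold change by the root of F. The script was tested on simulated data. DESeq2 1.42.0 and limma-voom 3.58.1 were alternatives. For ratios, exact permutation tests (two-sided) were used. The members and lists were chosen with earlier results of these data known. The genes named were the 5 inducible subunits, their partners and members by class, and from other lists up to 4 past the threshold by smallest p, of which some are not reported here. A deposited table of 30 genes holds 0 members and was not used.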

Additional observations from a re-analysis of the deposited data

How the results depend on the processing

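The count of 31 proteasome genes higher in the KO was 29 to 36 under other scalings, filters and tests (36 with plain library sizes) and 27 to 34 without 1 library; the counts for the constitutive and inducible subunits stayed within 1.5 times under every alternative. The count of lower genes was 0, and 1, Psmg1, with RLE factors, with upper-quartile factors, with a minimum of 1 CPM in 3 libraries and with DESeq2; it was 0 to 1 without 1 library. The count of 2 lower accessory genes was 1 with plain library sizes and 1 with a replicate block, 3 with upper-quartile factors and 3 with DESeq2, and 1 to 5 without 1 library, 5 without KO replicate 1. Some genes that did not pass changed sign: with upper-quartile factors, Psma2 (-0.015), Psmd8 (-0.0026) and Psme4 (-0.013), and without 1 library Psma2 (-0.046 to 0.059), Psmd8 (-0.012 to 0.047) and Psme3 (-0.060 to 0.14). With a replicate block 29 genes were higher, Psmd9 and Psmd10 being lost (edgeR adjusted p = 0.0557 and 0.0821); in this balanced design a block cannot move the pair ratios. No pairing by replicate number was seen: over all rows tested, same-numbered deviations from the group means correlated at 0.00, -0.01 and -0.02. This check could miss a pairing that touches few genes. The inducible share of the catalytic genes shifted by 3.48 percentage points per kb of principal transcript and by 3.36 in plain counts, choices added after seeing the data. Psmd10 was also lost with upper-quartile factors, DESeq2 and no filter (adjusted p 0.0601 to 0.0943). The median of all rows moved by less than 0.1 under every scaling. With plain library sizes Psma6, Psmb7, Psmc6, Psmd7 and Psmd12 also passed (log2 fold changes 0.16 to 0.29, edgeR adjusted p 0.0299 to 0.0454).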
